A study of Mus musculus with 6 samples.

Results

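Macrophages settle in the mouse kidney while it is still forming, and 10 genes typical of them were followed here over whole kidneys at embryonic day 12.5. They are C1qa, C1qb, C1qc, Csf1r, Cx3cr1, Mrc1, Tyrobp, Fcer1g, Cd68 and Ctss. Their members on the array are the probe sets whose platform annotation names exactly 1 of these symbols, 15 of 45101 in all, and each of the 10 genes had at least 1. All 15 passed the filter on dim probe sets, so the genes make up 10 of the 12464 genes tested. There were 6 single-colour Affymetrix arrays, 3 of Hoxb7-Cre,Gfp;beta-catenin deficient kidneys (called knockout below) and 3 of normal kidneys. In the knockout a beta-catenin allele with loxP sites around exons 2 to 6 meets Cre recombinase from Hoxb7-Cre,Gfp. The Hoxb7 promoter drives Cre in the ureteric bud, the epithelium that becomes the collecting ducts, so most other kidney cells are expected to keep the gene. The labels give no strain and no genotype of the normal kidneys, and each sample is a vial into which dissected kidneys were sorted at random, of an unstated number of animals. The titles call them biological replicates. The p-values below therefore measure the spread between these vials, part of which may be technical. Titles and source names separate the groups, while the description of the knockout samples reads as normal, and every direction follows the titles.

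Tissue macrophages of the embryo descend from yolk sac and fetal liver precursors and depend on the receptor Csf1r for survival. They clear dying cells, secrete the complement starter C1q and shape vessels and epithelium of growing organs. In a whole organ they are a minority, and their genes are read here as a gauge of how much macrophage RNA a sample holds. That reading assumes that other kidney cells add little to these signals, which was not tested. Fewer macrophages and less of this RNA per macrophage cannot be told apart in such samples.

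Every deposited value is a MAS5 signal, a linear intensity per probe set, and differences are knockout minus normal on the log2 scale with the standard error (SE) of the limma fit. Array medians ran from 24.9 to 32.1. Knockout and normal arrays differed at 157 of 27022 probe sets by limma with Benjamini-Hochberg adjustment at a threshold of 0.05. Ctnnb1, the targeted gene, averaged 6714 ± 111 in knockout and 6338 ± 557 in normal kidneys (SD, n = 3 each), a difference of 0.09 (SE 0.08, limma adjusted p = 0.695), and where its probes lie relative to the deleted exons was not analysed here. Other tissues came along unevenly. The mean of 11 skeletal muscle genes stood at 1.43, 3.69 and 0.01 in knockout arrays 1, 2 and 3 and between -0.13 and 0.19 in normal kidneys, on a log2 scale whose zero is the normal mean. The summed signal of these genes ran from 704.4 to 7979 in knockout and from 534.5 to 638.1 in normal kidneys. The chromaffin and sympathetic list ran from -0.89 to 0.86 in knockout and from -1.18 to 1.42 in normal kidneys.

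Promoters were available for 7 of the 10 members in RefSeq (build GRCm38.p6), as windows of 300 bases with 250 before and 50 after the start of the gene. The letters GAGGAA, a core of sites of the myeloid factor PU.1, were searched on both strands and are in capitals below (TTCCTC where the match is on the other strand). They occur in the windows of Mrc1, Ctss, C1qb, C1qc and Cd68, 5 of 7, and in 28.3% of all 32851 windows. The longer GAGGAAGT, which contains them, is in the windows of Ctss and C1qc and in 3.2% of all windows. The windows shown belong to genes that the results below set against each other: a pair of neighbouring complement genes with different lowest arrays, and Ctss and Mrc1, the members whose level relative to the member mean did not overlap between the groups. They are C1qb (chr4:136886151-136886450, minus strand), C1qc (chr4:136892865-136893164, minus strand), Ctss (chr3:95526536-95526835, plus strand) and Mrc1 (chr2:14229164-14229463, plus strand).
C1qb: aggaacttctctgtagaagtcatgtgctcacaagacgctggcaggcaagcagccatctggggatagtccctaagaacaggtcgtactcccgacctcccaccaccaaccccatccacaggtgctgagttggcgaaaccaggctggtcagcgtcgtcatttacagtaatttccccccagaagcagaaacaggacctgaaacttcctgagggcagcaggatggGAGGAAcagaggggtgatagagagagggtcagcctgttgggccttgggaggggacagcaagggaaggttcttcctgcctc
C1qc: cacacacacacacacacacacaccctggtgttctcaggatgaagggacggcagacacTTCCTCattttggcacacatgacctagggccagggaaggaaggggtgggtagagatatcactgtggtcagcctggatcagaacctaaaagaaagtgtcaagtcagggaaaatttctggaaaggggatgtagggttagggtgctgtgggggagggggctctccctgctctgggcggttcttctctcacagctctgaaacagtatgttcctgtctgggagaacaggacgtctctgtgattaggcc
Ctss: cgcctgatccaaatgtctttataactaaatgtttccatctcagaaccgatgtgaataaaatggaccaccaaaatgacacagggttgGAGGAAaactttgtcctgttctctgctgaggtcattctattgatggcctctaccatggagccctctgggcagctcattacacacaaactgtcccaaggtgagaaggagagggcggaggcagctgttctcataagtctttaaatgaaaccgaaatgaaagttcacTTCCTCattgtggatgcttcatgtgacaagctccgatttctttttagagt
Mrc1: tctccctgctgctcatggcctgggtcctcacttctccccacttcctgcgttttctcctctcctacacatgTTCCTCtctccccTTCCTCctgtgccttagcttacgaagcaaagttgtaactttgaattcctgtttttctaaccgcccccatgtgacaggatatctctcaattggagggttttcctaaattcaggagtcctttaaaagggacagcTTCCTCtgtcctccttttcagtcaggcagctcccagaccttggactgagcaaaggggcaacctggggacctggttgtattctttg
The Mrc1 window holds 3 of these matches, at bases 71, 84 and 216 of the window. That of Ctss holds 2, at bases 87 and 251, and the IRF motif at base 230 (present in 3.44% of all windows). Those of C1qb and C1qc hold 1 each, at bases 221 and 58. The C/EBP letters TTGCNNAA (10.8% of all windows) and the AP-1 letters TGANTCA (7.81%) occur in the Cd68 window alone, and CACGTG (7.15%) occurs in 0 of 7. A match of letters is a description of the window and not a binding site.

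The macrophage genes as a group were higher in knockout kidneys on average, and none of the 10 passed the threshold. Of the 10 genes, each read from its brightest probe set, 9 were higher and 1 was lower, where 49.4% of all genes tested were higher. Their median difference was 0.71, against 0.00 over all 12464 genes tested (median -0.003). The members rose and fell together over the arrays, so a count of directions does not rest on independent genes, and a single array can set it. The same holds for such counts in the other macrophage and leukocyte lists below. With limma, 0 of 10 passed at an adjusted p of 0.05, where 0.602% of the genes tested passed in either direction. At an unadjusted limma p under 0.05 there were 4, all higher (C1qb, Csf1r, Cx3cr1 and Ctss), where 11.7% of the genes tested reached that level and 6.14% did so as higher. That count was 1 when knockout replicate 2 was left out, 2 when normal replicate 2 was, and 9 when normal replicate 1 was. It was 6 under median centring, 2 with no intensity trend, 7 with both replicates 1 left out, and 2 with the mean of the probe sets of a gene, where Csf1r differed by 0.28. All knockout arrays lay above all normal arrays for 2 genes, C1qb and Cx3cr1, where 10.2% of the genes tested did so, and 0 of the 10 lay wholly below (9.1%). Over the 15 probe sets, 6 were higher at an unadjusted limma p under 0.05 (5.74% of all tested) and 0 passed (0.581%). For 3 probe sets all knockout arrays lay above (9.17%), for 0 below (8.69%), and 12 were highest in knockout replicate 2 (16.6%).

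Macrophage content, as read from the 10 genes, spanned more among the normal arrays than the group means differed, and less among the knockout arrays. The mean log2 signal of the 10 genes, set to 0 at its normal mean, was 0.39, 0.94 and 0.49 in knockout arrays 1, 2 and 3, against 0.54, -0.65 and 0.10 in normal arrays 1, 2 and 3. Normal replicate 2 was the lowest array and knockout replicate 2 the highest, and normal replicate 1 lay above knockout replicates 1 and 3, so the groups overlapped. The highest array held 3.00 times the level of the lowest. The normal arrays alone spanned 2.28-fold and the knockout arrays 1.46-fold, while the group means differed 1.52-fold. A span of single arrays and a ratio of means are unlike measures. Normal replicate 2 was the lowest array for 9 of the 10 genes, against 17.5% of all genes tested. Knockout replicate 2 was the highest for 9 of the 10, against 18.4%. Normal replicate 2 also had the lowest array median, 24.9, with knockout replicate 3 next at 25.1. Its signal ratio of the 3' to the 5' actin control probe set was the highest, 1.42, where the other arrays ran from 1.27 to 1.33. Whether array quality plays a part in its low level was not tested. Without normal replicate 2 the median difference of the members was 0.32 in place of 0.71, and without normal replicate 1 it was 0.94.

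**Figure D1:**
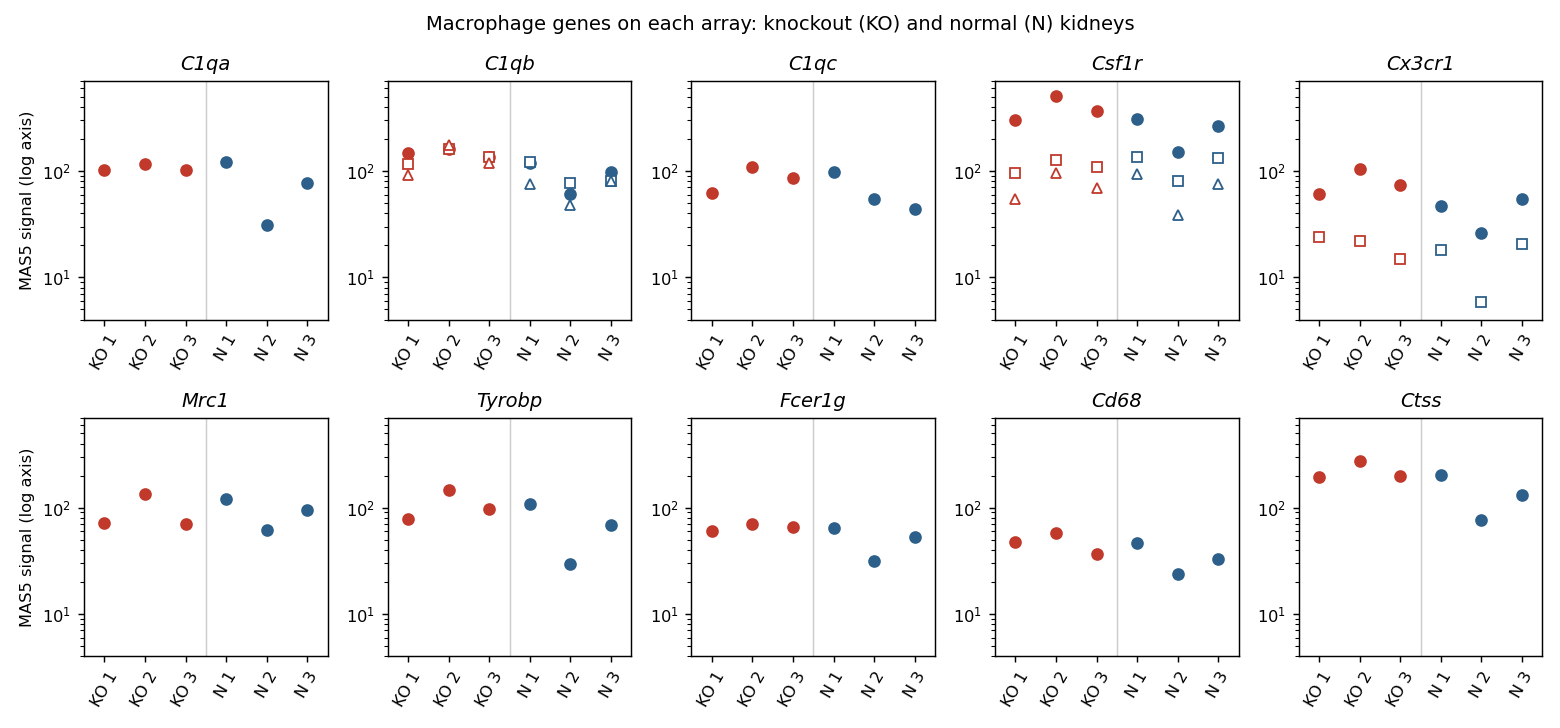
MAS5 signal (log axis) of each macrophage gene on the 3 knockout (KO) and 3 normal (N) arrays. Filled circles are the brightest probe set of a gene and open symbols its other probe sets; the second normal array is the lowest for 9 of the 10 genes by the filled circles.

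The 3 C1q genes encode the A, B and C chains of complement component C1q, which macrophages make locally, and lie next to one another among the coding genes of chromosome 4. C1qa read 101.4, 115.8 and 101.3 in knockout arrays 1, 2 and 3, against 120.3, 30.9 and 76.9 in normal arrays 1, 2 and 3. Knockout kidneys were alike and normal kidneys spread about them, with normal replicate 1 the highest array and normal replicate 2 the lowest. The difference was 0.69 (SE 0.41, limma adjusted p = 0.556), and 0.14 without normal replicate 2.

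C1qb, the B chain, read 148.7, 161.6 and 136.5 in knockout kidneys and 118.7, 60.4 and 98 in normal kidneys on its brightest probe set. The groups did not overlap, and the difference of 0.74 (SE 0.24, 95% interval from 0.20 to 1.28) did not pass (limma adjusted p = 0.311). Its other probe sets read 115.2, 159.1 and 135.6 in knockout against 120.6, 77.5 and 80 in normal kidneys, and 90.7, 176.7 and 117.7 in knockout against 75.1, 48 and 79.8 in normal kidneys. They differed by 0.58 (SE 0.21) and 0.90 (SE 0.28), so the 3 probe sets had 1 direction, and without normal replicate 2 they still stood at 0.46, 0.46 and 0.68. C1qc, the C chain, read 62.6, 108.9 and 86.7 in knockout and 96.9, 54.5 and 43.6 in normal kidneys. It was the only member gene whose lowest array was normal replicate 3, its groups overlapped, and it differed by 0.45 (SE 0.32, limma adjusted p = 0.609).

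Csf1r, the receptor tyrosine kinase for the macrophage growth factors Csf1 and Il34, read 301, 503 and 365.7 in knockout kidneys and 306.6, 149.6 and 265.7 in normal kidneys on its brightest probe set. Knockout replicates 2 and 3 were the highest arrays, while normal replicate 1 lay just above knockout replicate 1. The difference was 0.73 (SE 0.27, 95% interval from 0.11 to 1.34, limma adjusted p = 0.380). Of the dimmer probe sets, one read 94.9, 126.7 and 108.1 in knockout and 134.7, 80.7 and 131.6 in normal kidneys, a difference of -0.05 (SE 0.22). The other read 54.7, 95 and 69.4 in knockout and 93, 38.3 and 74.8 in normal kidneys, a difference of 0.15 (SE 0.34). All 3 were lowest in normal replicate 2, and their 95% intervals for knockout minus normal overlapped.

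On the same array, the log2 signal of the brightest Csf1r probe set minus that of the first of these ran from 1.67 to 1.99 in knockout and from 0.89 to 1.19 in normal kidneys. Minus the second it ran from 2.40 to 2.46 in knockout and from 1.72 to 1.97 in normal kidneys. Probe sets differ in brightness by design, so these values serve only to compare the groups. Neither pair overlapped between groups, as was the case for 15.4% of 10561 such pairs over all genes. In a limma fit over all these pairs, added after the values were seen, the differences of 0.77 (SE 0.16, adjusted p = 0.212) and 0.58 (SE 0.13, adjusted p = 0.256) did not pass, and 0.152% of the pairs did. Each of the 7 pairs that the members allow, which share probe sets, was also compared by an exact two-sided permutation test, where 0.1 is the smallest p that 3 against 3 allows and both Csf1r pairs reached it (0.35 after Benjamini-Hochberg adjustment over the 7). The other 5 pairs, those of C1qb, of Cx3cr1 and of the dimmer Csf1r probe sets, overlapped between the groups.

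Cx3cr1, the receptor for the chemokine fractalkine, read 60.1, 105.3 and 74.1 in knockout and 46.5, 26.3 and 54.9 in normal kidneys. It had the largest difference of the 10 genes, 0.93 (SE 0.32, 95% interval from 0.21 to 1.66), and its groups did not overlap, yet it did not pass (limma adjusted p = 0.343). Without normal replicate 2 the difference was 0.62. Its dimmer probe set read 23.9, 22 and 14.8 in knockout and 18, 5.8 and 20.4 in normal kidneys, around the filter signal of 14.7, where MAS5 values scatter widely, and its groups overlapped.

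**Figure D2:**
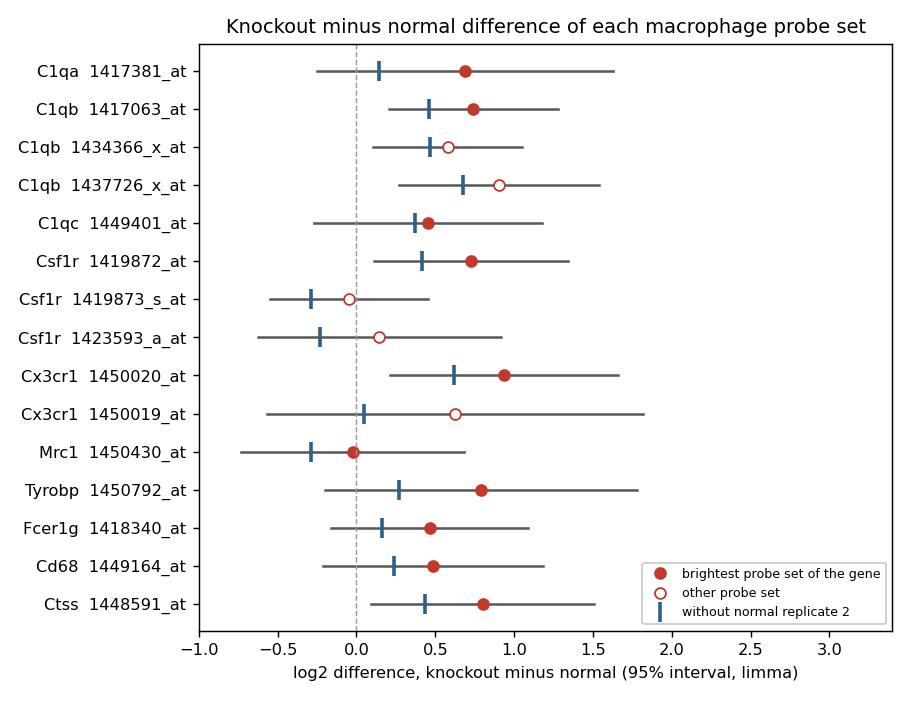
Difference between knockout and normal kidneys of the 15 macrophage probe sets (log2 scale, point with 95% interval from limma), with the value without normal replicate 2 as a bar. Filled points are the brightest probe set of a gene; 13 of the 15 points lie above 0 and 6 intervals exclude it before adjustment, and every bar lies to the left of its point.

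Mrc1, the mannose receptor CD206 of resident macrophages, was the only member gene with a difference below 0 on its brightest probe set. It read 71.6, 134.5 and 70.5 in knockout kidneys and 120.6, 61.9 and 95.7 in normal kidneys. Knockout replicates 1 and 3 lay below normal replicates 1 and 3, and the difference was -0.02 (SE 0.31, 95% interval from -0.73 to 0.68, limma adjusted p = 0.984). Normal replicate 2 was again the lowest array and knockout replicate 2 the highest. Set against the mean of the 10 members on the same array, Mrc1 stood at -0.71, -0.35 and -0.83 in knockout and at -0.11, 0.12 and 0.00 in normal kidneys, with no overlap. By the same measure 27.4% of all genes tested lay below in every knockout array, and the member mean was itself higher there, so the pattern of Mrc1 was a common one outside the list.

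The adaptor proteins Tyrobp (DAP12) and Fcer1g (the common gamma chain of Fc receptors) carry activating signals of partner receptors through a tyrosine motif in their tails. Tyrobp read 78.5, 147.5 and 97.6 in knockout and 109, 29.3 and 68.5 in normal kidneys. It had the widest span of any member gene, 5.03-fold between knockout replicate 2 and normal replicate 2, and a difference of 0.79 (SE 0.44, limma adjusted p = 0.523). Without normal replicate 2 that difference was 0.27. Fcer1g read 60.6, 70.5 and 66.4 in knockout and 64.5, 31.3 and 53.4 in normal kidneys, a difference of 0.47 (SE 0.28, limma adjusted p = 0.550). Knockout kidneys and normal replicate 1 read alike for Fcer1g, and normal replicate 2 was 0.531 of the mean of the other normal arrays.

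The lysosomal members are Cd68, a membrane glycoprotein of late endosomes, and Ctss, the cysteine protease cathepsin S. Cd68 read 48, 57.1 and 36.8 in knockout and 46.8, 23.7 and 33.2 in normal kidneys, a difference of 0.48 (SE 0.31, limma adjusted p = 0.573). Ctss read 195.6, 277.3 and 197.1 in knockout and 200.8, 76.3 and 131.8 in normal kidneys, a difference of 0.80 (SE 0.31, 95% interval from 0.09 to 1.51, limma adjusted p = 0.398). Both were highest in knockout replicate 2 and lowest in normal replicate 2, with overlapping groups. Relative to the mean of the members on the same array, Ctss ran from 0.15 to 0.24 in knockout and from -0.08 to 0.12 in normal kidneys, a spread of 0.32 over the 6 arrays, where C1qc spread over 1.07. The knockout values lay above the normal ones without overlap, the lowest at 0.152 against 0.124 in normal replicate 1. Of all genes tested 0.281% did so, but the member mean was itself higher in knockout arrays, which lowers most genes by this measure. That share therefore does not mark Ctss as unusual, and Ctss is itself part of the member mean.

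**Figure D3:**
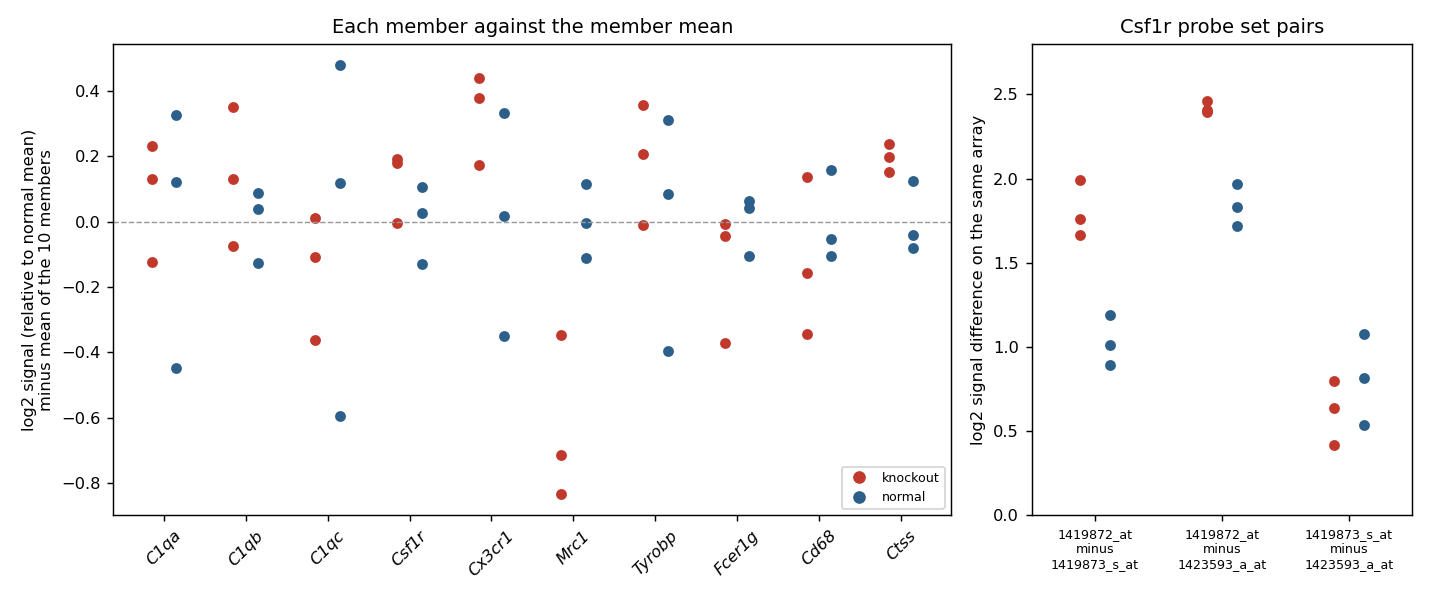
Left, log2 signal of each member relative to its normal mean, minus the mean of the 10 members on the same array, for knockout and normal arrays; Mrc1 lies between -0.83 and -0.35 in knockout and between -0.11 and 0.12 in normal kidneys. Right, log2 differences between Csf1r probe sets on the same array; the pairs with the brightest probe set do not overlap between knockout and normal arrays.

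A separate list of 28 macrophage identity genes had the same highest and lowest arrays as the members. Of these, 27 had a probe set annotated and 16 passed the filter on dim probe sets. All 16 were higher in knockout kidneys (49.4% of all genes tested), with a median difference of 0.38. Over all genes tested 0 passed, and 2 reached an unadjusted limma p under 0.05, near the share over all genes tested (11.7%). On the same scale its mean was 0.45, 0.77 and 0.41 in knockout arrays 1, 2 and 3, against 0.42, -0.54 and 0.12 in normal arrays 1, 2 and 3. Normal replicate 2 was the lowest array for 15 of the 16 (17.5% of all genes tested), and the groups overlapped.

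The smallest p in that list belonged to Mpeg1, the pore-forming perforin-2 of macrophages. It read 63.1, 92.3 and 80 in knockout and 36, 31.6 and 44.1 in normal kidneys, a difference of 1.07 (SE 0.23, limma adjusted p = 0.111). All its knockout arrays lay above all normal arrays, as for 10.2% of all genes tested. Lysozyme genes followed, Lyz1 at 1.41 (SE 0.43, limma adjusted p = 0.280) and Lyz2 at 0.86 (SE 0.39, limma adjusted p = 0.439). Near-identical copies such as these may share probes. Adgre1, which encodes the F4/80 antigen used to stain mouse macrophages, read 80.3, 100.7 and 70.5 in knockout and 72.6, 49.6 and 75.4 in normal kidneys, a difference of 0.36 (SE 0.23, limma adjusted p = 0.572). The genes under the filter included Cd163, Folr2, Siglec1, Itgam and the microglial receptor P2ry12.

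Pan-leukocyte genes had a higher mean on each of the 3 knockout arrays than on any normal array. The mean of the 13 measured was 0.27, 0.73 and 0.25 in knockout arrays 1, 2 and 3, against 0.19, -0.24 and 0.05 in normal arrays 1, 2 and 3. All 13 were higher (49.4% of all genes tested), with a median difference of 0.43. The threshold was passed by 0, and 5 reached an unadjusted limma p under 0.05 (11.7% of all genes tested). The leukocyte phosphatase Ptprc (CD45) read 45.2, 62.1 and 48.5 in knockout and 38, 32.6 and 43.1 in normal kidneys. All its knockout arrays lay above all normal arrays (10.2% of all genes tested), and the difference was 0.45 (SE 0.23, limma adjusted p = 0.495). The tetraspanin Cd53 differed by 0.88 (SE 0.34, limma adjusted p = 0.388).

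Of 15 measured Fc receptor and ITAM signalling genes 11 were higher and 4 lower, with a median difference of 0.06 and 0 past the threshold. An unadjusted limma p under 0.05 was reached by 3 (11.7% of all genes tested). Clec7a, the beta-glucan receptor dectin-1, read 28.9, 40.5 and 29.6 in knockout and 8.9, 11.8 and 17.5 in normal kidneys, partly under the filter signal of 14.7, a difference of 1.41 (SE 0.36, limma adjusted p = 0.194). Fcgr3, a low-affinity IgG receptor that signals through Fcer1g, differed by 0.91 (SE 0.38, limma adjusted p = 0.418). Trem2, a partner of Tyrobp, reached at most 23.9 on any array and differed by 0.21 (SE 0.49).

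Ligands and growth factor genes showed no shared direction. Of 8 measured genes of the Csf1r ligand and signalling list, 4 were higher and 4 lower, and 0 passed either at an adjusted or at an unadjusted limma p of 0.05. Csf1 read 66, 69.7 and 55.8 in knockout and 59.4, 35.5 and 59.8 in normal kidneys, a difference of 0.34 (SE 0.25, limma adjusted p = 0.621), and was lowest in normal replicate 2. Cx3cl1, the ligand of Cx3cr1, differed by 0.71 (SE 0.60, limma adjusted p = 0.671), with 5.1 in normal replicate 2. The cytokine gene Tgfb1 (-0.56, SE 0.30, limma adjusted p = 0.517) and the chemokine gene Ccl4 (0.68, limma adjusted p = 0.543) had the smallest p of that list. Il34 stayed under the filter, with a highest signal of 19.

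Macrophage transcription factors had no shared direction. Of 10 measured, 6 were higher and 4 lower, their median difference was 0.15, and 0 passed. An unadjusted limma p under 0.05 was reached by 3 (11.7% of all genes tested). Spi1, which encodes PU.1, read 30.1, 38.5 and 28.9 in knockout and 31.9, 23.6 and 34.1 in normal kidneys, a difference of 0.13 (SE 0.27, limma adjusted p = 0.884). It was lowest in normal replicate 2, as were 2 of the 10 in all, and highest in knockout replicate 2. Zeb2 (0.28) and Maf (0.34), which other kidney cells express too, had the smallest p of the list. The other at that unadjusted level, Runx1, was lower, at -0.64 (SE 0.28, limma adjusted p = 0.436). All its knockout arrays lay below all normal arrays, as for 9.1% of all genes tested. Runx1 is a blood cell factor outside the rule for named genes and was chosen after its values were seen.

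The lysosomal and uptake receptor lists, whose genes other cells express too, had medians near 0. The 19 lysosomal proteases and proteins had a median difference of 0.03, 10 higher and 9 lower, with Grn at 0.23 (SE 0.08, limma adjusted p = 0.347) and the protease Ctsb at 0.20 (SE 0.12, limma adjusted p = 0.553) the smallest p. The 15 mannose receptor relatives and uptake receptors had a median of -0.04, 5 higher and 10 lower, with Mfge8, a bridge to dying cells, at -0.23 (SE 0.10, limma adjusted p = 0.440) and the phospholipase receptor Pla2r1 at -0.59 (limma adjusted p = 0.539). Neither list had a member past the threshold, with 1 and 0 at an unadjusted limma p under 0.05 (11.7% of all genes tested).

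**Figure D4:**
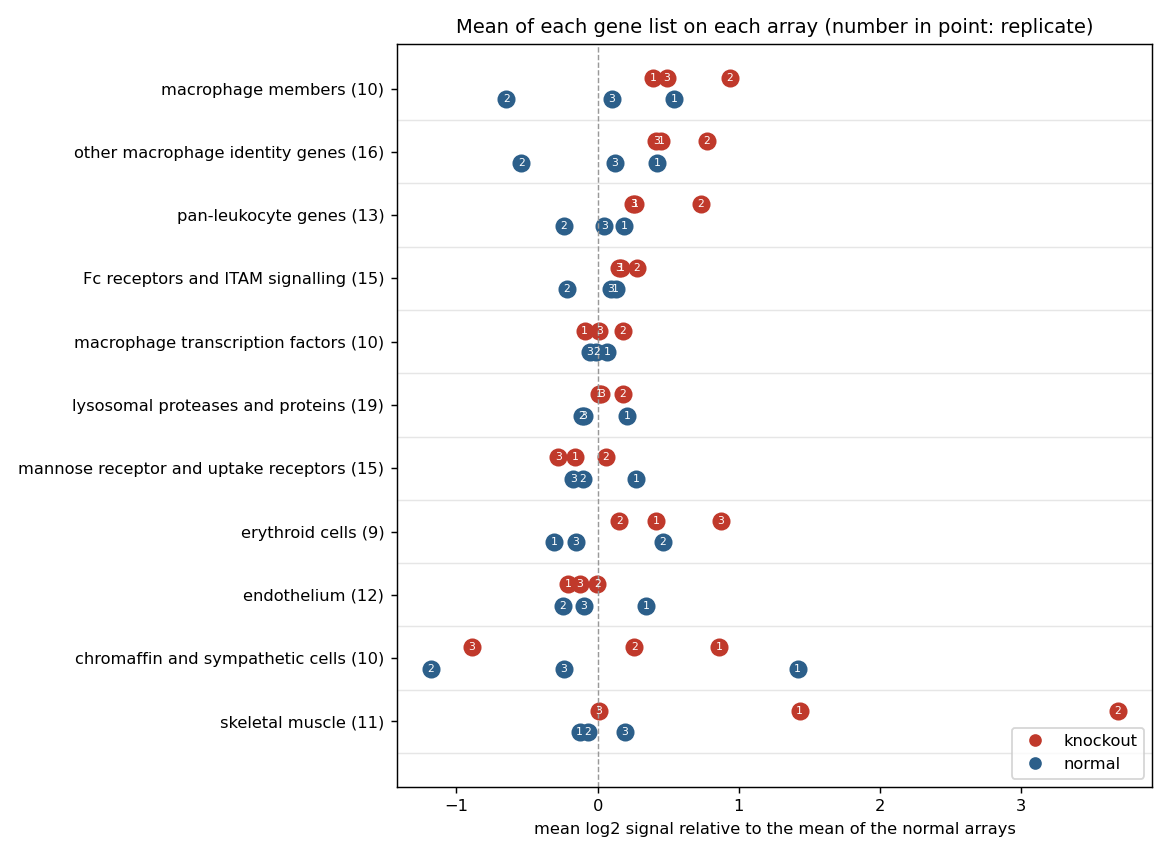
Mean log2 signal of each gene list on each array, with the normal mean at 0 (number of genes measured in brackets, replicate number in each point, knockout above normal). The members and the other macrophage identity genes are lowest in normal replicate 2 and highest in knockout replicate 2; muscle genes reach 3.69 in knockout replicate 2.

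Several of these other lists moved with macrophage content on some arrays. Muscle genes were highest in knockout replicate 2, as were the members, but near the normal level in knockout replicate 3, where the members stood at 0.49. Chromaffin genes were lowest in normal replicate 2 and highest in normal replicate 1, the lowest and the highest normal arrays for the members too. Endothelial genes (-0.25 and 0.35) and renal stroma genes (-0.10 and 0.14) had the same lowest and highest normal arrays, over a narrower range. Ureteric bud and nephron progenitor genes did not. The part of these lists in the result was not tested. With both replicates 1 left out, the highest array of each group in chromaffin genes, the median difference of the members was 1.05, with 0 past the threshold. For the members these were the highest normal array (0.54) and the lowest knockout array (0.39). Leaving both out therefore widens the difference between the group means whatever the chromaffin level. Without knockout replicate 2, the highest array in muscle genes, the median difference was 0.53. Erythroid genes ran the other way among normal kidneys, at 0.46 in normal replicate 2 against -0.31 and -0.15 in normal replicates 1 and 3. The lymphocyte genes Cd3e, Cd79a and Il7r and the mast cell proteases Cpa3, Mcpt4 and Cma1 were under the filter. The 2 mast cell genes measured, Kit (-0.29, limma adjusted p = 0.637) and Gata2 (-0.12, limma adjusted p = 0.898), are also expressed by other cells, and the 2 lymphocyte genes measured, Cd8a and Cd79b, differed by 0.17 and 0.07.

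**Figure D5:**
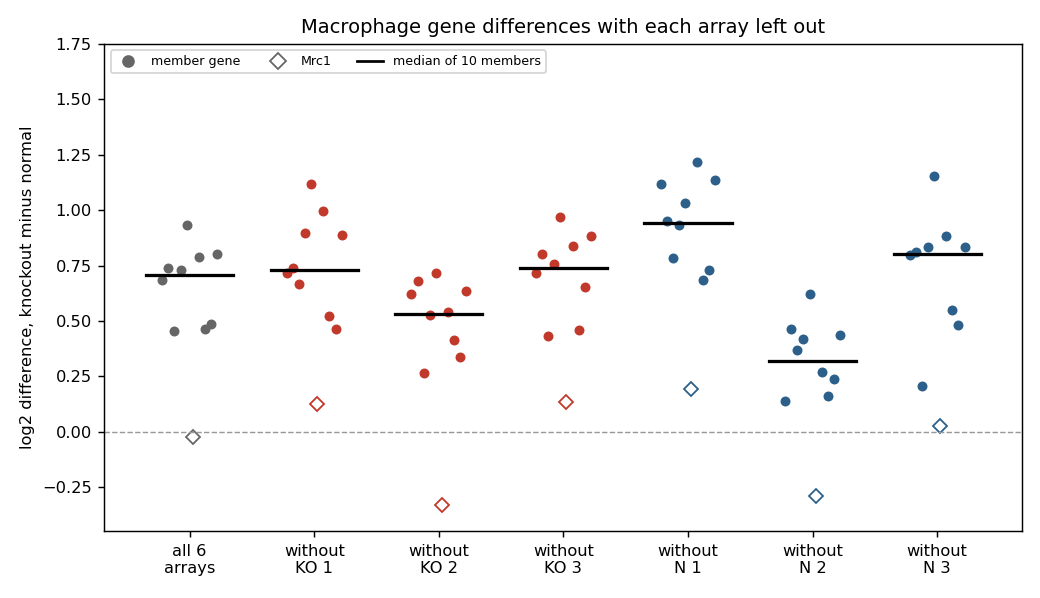
Difference between knockout and normal kidneys (log2 scale) of the 10 macrophage genes with all arrays and with each array left out; bars are medians and open diamonds Mrc1. The median runs from 0.32 without normal replicate 2 to 0.94 without normal replicate 1.

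Over the 6 arrays, the genes outside the list whose pattern came closest to the mean of the members were Lox, Siae, Pfkp, Ms4a6c, Gatm and Pxt1. Closeness was measured as the root mean square distance of log2 signals, each gene centred on its mean. Lox, a lysyl oxidase that crosslinks collagen, had a distance of 0.07, and the next were Siae at 0.10 and Pfkp, a phosphofructokinase, at 0.13, where the median over all genes was 0.53. Lox read 192.8, 293 and 207.6 in knockout and 211.5, 102.9 and 178.9 in normal kidneys. Ms4a6c, at 0.14, belongs to the macrophage identity list, and the other 5 do not. Among the members themselves the distance ran from 0.11 for Csf1r to 0.34 for C1qc and 0.35 for Mrc1, and each member is itself part of that mean.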

How the data were processed

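RNA of 6 vials of mouse kidneys was hybridised to 1 single-colour Affymetrix array each. The authors deposited linear intensities, which the submitters' processing notes credit to MAS5 with no version or settings. Trimmed at percentiles 2 and 98, every array had a mean of 150.0, and array medians spanned 0.37 log2, under the limit of 0.5, so no scaling was added. Before the log2 step, 15 zeros were replaced by 1.7 (percentile 10 of the values above 0). Of 45037 probe sets without the 64 controls, 27022 had a mean log2 signal above the 40th percentile (14.7). Of the 45037, 34945 carried 1 annotated symbol, 932 several and 9160 none here, and symbols were updated through gene identifiers. A gene is represented by its brightest kept probe set over all 6 arrays.

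The comparison used limma 3.58.1 under R 4.3.3 (lmFit, eBayes with trend, Benjamini-Hochberg adjustment over all 27022 probe sets). On simulated data of knockout against normal, with normal and independent noise, 50.7% of 67 probe sets changed 2-fold were recovered, with 11 false calls among 27022. At 1.5-fold, near the 1.52-fold between the group means of the members, the same simulation detected only 12 of 67 (17.9%). A count of 0 members past the threshold therefore does not show that the members are unchanged. The number of arrays limits the precision. The replicate numbers were checked for pairing. Deviations of same-numbered arrays correlated at 0.08, -0.11 and -0.20, and those of arrays with unlike numbers between -0.23 and 0.30. The numbers thus gave no sign of pairing, which 3 arrays per group cannot exclude. The members and gene lists were chosen with earlier results of these data known. Named genes were the members, the 2 genes of smallest p in each macrophage or blood list, 8 genes fixed by name (Spi1, Adgre1, Csf1, Il34, Cx3cl1, Trem2, Lyz2 and Ptprc) and the 6 closest in pattern; others were chosen after their values were seen, and 1 gene that the rule names is not reported here. Alternatives covered scaling, filter, pseudocount, variance model, replicate block, the mean of the probe sets of a gene and left-out arrays.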

Additional observations from a re-analysis of the deposited data

How the results depend on the processing

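Over 15 alternatives the count of members past the threshold stayed at 0, and their median difference stayed above 0. It lay between 0.58 and 0.73 under the scalings, filters, pseudocount of 16, variance model and probe set mean, between 0.32 (without normal replicate 2) and 0.94 (without normal replicate 1) with 1 array left out, and at 1.05 without normal replicate 1 and knockout replicate 1. The smallest adjusted p of any member was 0.055, for Cx3cr1 under median centring. Mrc1, at -0.02 with all arrays, ran from -0.33 to 0.19 with 1 array left out and was above 0 when the array left out had replicate number 1 or 3, in either group, and stood at 0.34 without both replicates 1. The count of probe sets past the threshold, 157, was 447 under median centring, 41 with no intensity trend, between 49 (without knockout replicate 3) and 148 (without normal replicate 1) with 1 array left out, and 31 without both replicates 1; it was 58 without knockout replicate 1, 63 without knockout replicate 2 and 95 without normal replicate 3. Apart from the left-out arrays, which leave fewer samples, the cause was not tested. With the replicate number as a block, 109 probe sets passed, and for the members the median was 0.71 with 0 past the threshold. The replicate numbers gave no sign of pairing the samples. Members dimmer than about 14.7 on an array are poorly measured.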

Other observations

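Other blood lineages differed from macrophages in which array was highest, but some shared the low one. On the scale of list means, megakaryocyte and platelet genes were lowest in normal replicate 2 (-0.552), as were the members. Neutrophil genes were low there (-0.975) and in normal replicate 3 (-1.017), while erythroid genes stood at 0.46 in normal replicate 2. Among neutrophil genes, the calgranulin S100a8, singled out after its values were seen, read 295.2, 180 and 22.7 in knockout and 172, 3.4 and 0.9 in normal kidneys, so 3 arrays were high across both groups. Normal replicates 2 and 3 lay far under the filter signal of 14.7, where values are poorly measured, and no fold is given (limma adjusted p = 0.450). The granule proteinase Prtn3 did not share this pattern, at 56.9, 65.4 and 67.6 in knockout and 46.1, 37.2 and 37.8 in normal kidneys (difference 0.65, SE 0.20, limma adjusted p = 0.296), and the myeloperoxidase gene Mpo differed by 0.82 (SE 0.36, limma adjusted p = 0.431). All 5 measured neutrophil genes were higher, with 0 past the threshold and 2 at an unadjusted limma p under 0.05 (11.7% of all genes tested). All 5 measured megakaryocyte and platelet genes were higher too (median 0.31, 0 past the threshold), with Ppbp at 0.84 (SE 0.40, limma adjusted p = 0.463). Pf4 read 221.4, 253.4 and 277 in knockout and 220.7, 173.5 and 215.1 in normal kidneys. Some macrophages also express Pf4, and it is counted in the macrophage identity list too. Of 9 measured erythroid genes 7 were higher and 2 lower, with 0 past the threshold; the heme synthesis enzyme Alas2 differed by 1.25 (SE 0.50, limma adjusted p = 0.406) and the erythroid factor Klf1 by 0.86 (SE 0.34, limma adjusted p = 0.402).

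Of 7 measured antigen presentation genes 4 were higher and 3 lower (median 0.07, 0 past the threshold). H2-Eb1, a class II chain, had the smallest p of them, at 0.96 (SE 0.47, limma adjusted p = 0.475), with 12 in normal replicate 2, followed by H2-Ab1 at 0.40 (limma adjusted p = 0.602). Of 7 measured complement and pattern receptor genes 4 were higher and 3 lower, and 0 passed. Calr, the calreticulin chaperone that can bind C1q on dying cells, came nearest, at 2716, 2969 and 2595 in knockout and 3865, 3761 and 3580 in normal kidneys, a difference of -0.44 (SE 0.08, limma adjusted p = 0.0516), followed by Cd55, a brake on complement, at 0.54 (SE 0.24, limma adjusted p = 0.436).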
